A study of Drosophila melanogaster with 3 samples.

Results

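This is an account of open chromatin deep inside very long genes in the pupal epidermis of the Drosophila melanogaster abdomen. The peaks described here are those whose summit lay inside a protein-coding gene spanning over 50 kb and over 500 bp from every annotated gene end, coding or not. They numbered 5633 of 34718 peaks in all, or 16.2%, and lay in 291 of the 307 such genes on X, 4 and both arms of chromosomes 2 and 3. The 307 genes are 2.21% of the 13922 protein-coding genes there. The members were chosen from position alone, so their enrichment values took no part in the choice. The count of peaks per gene follows from the choice and is given as a description.

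Accessible DNA was cut and tagged with a transposase and sequenced (ATAC-seq). Each of 3 replicates held the abdominal cuticles, with the epidermis attached, of 50 pupae taken 38 to 45 h after puparium formation. All were of 1 genotype, labelled WT, and the sources used here name no allele, transgene or treatment. The 3 replicates were used as 1 merged peak list, so no value below has a replicate error and no difference was tested over samples. In a pooled tissue, a site open in a few cells and a site weakly open in all cells cannot be told apart. No strand, transcription start, exon or sequence was used here, so a peak called interior may lie in an exon, an intron, a UTR or at an internal promoter.

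The labelled tissue was checked by summits within 500 bp of the ends of marker genes, which 65.6% of all protein-coding genes had. Of 9 epidermal markers 8 had such a summit (cora, ed, grh, kkv, knk, serp, shg and verm), and Tsp2A had none. Markers of other cells had them too, in 3 of 4 muscle, 3 of 4 neuronal and 3 of 3 hemocyte genes. The counts were 1 of 3 for fat body, 1 of 2 for trachea, 1 of 2 for oenocytes and 0 of 1 for gut. Against that share these small counts say little about which cells were present, and the part of other cell types in the results below was not tested.

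Most of the length of a very long fly gene is intron. Introns of developmental regulators hold many known enhancers, stretches that raise transcription from a promoter at a distance, and some hold promoters of shorter isoforms. Very long genes of the fly include developmental regulators, adhesion molecules of axons and synapses, and ion channels. Some lie in the repeat-rich DNA next to the centromeres, where introns can be very large.

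The 5633 peaks made up 32.1% of all summits in the interiors of protein-coding genes, and 31.3% with those inside non-coding genes alone counted too. Over 500 bp from every gene end, the interiors of the 307 genes summed to 27.8 Mb. The median long gene held 17 interior peaks (interquartile range 4 to 28, highest 80), or 2.50 per 10 kb of interior sequence (interquartile range 0.531 to 4.13, highest 6.64). Of the 307 genes 191 held 10 or more (62.2%), 61 held 3 to 9, and 55 held 2 or fewer (17.9%), among them 16 with none. The 191 genes with many peaks held 93.3% of all pairs of a gene and an interior peak on 56.1% of the interior sequence. The 55 genes with few held 0.930% of the pairs on 22.4% of the sequence. An overlap of hosts placed 172 peaks in 2 long genes at once, most of all 56 shared by Glut4EF and CG46467 and 29 shared by Antp and CG46458.

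The gene with the most interior peaks was kirre, which encodes an immunoglobulin-family adhesion protein of muscle founder cells. It held 80 on a span of 394 kb (X:2740384–3134532). It was followed by pum, a translational repressor gene, with 69 (3R:9066343–9237682), and heph, which encodes a splicing regulator that binds polypyrimidine tracts, with 60 (3R:31846987–32015520). SKIP, named for an interaction with a potassium channel, held 59. The overlapping Glut4EF and CG46467 held 58 and 56. The PDZ-domain gene bbg and klar, which positions nuclei and vesicles along microtubules, held 55 each. The zinc-finger gene jing, mtgo and the ecdysone-induced nuclear receptor gene Eip75B held 53 each, and the zinc-finger gene mamo held 52.

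Per length of interior sequence the order was different. The densest was rols, which encodes an adaptor used in myoblast fusion, with 33 interior peaks at 6.64 per 10 kb on a span of 56.6 kb (3L:12008225–12064859). Samuel followed at 6.47, then Fas3, an adhesion gene of septate junctions, at 5.85. The bristle and microtubule gene jvl was at 5.83, ko at 5.82 and mam, which encodes a coactivator of the Notch pathway, at 5.80. They were followed by bun, of the TSC22 family, at 5.74 and Pgant9, which encodes an enzyme that starts O-linked sugar chains, at 5.65. The count of kirre corresponds to 2.27 per 10 kb, below the median of all 307 genes.

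**Figure D1:**
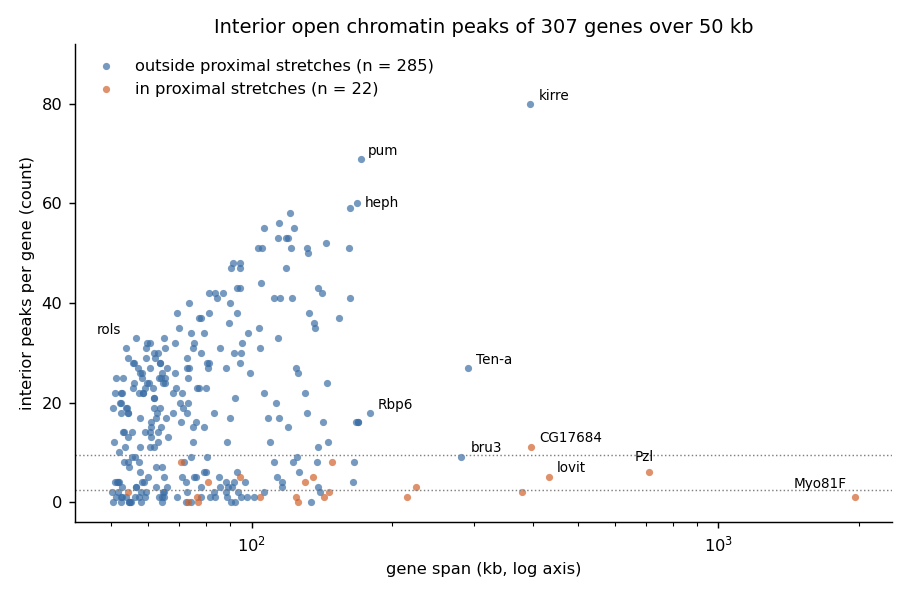
Interior peaks per gene (count) against gene span (kb, log axis) for 307 long genes, 1 point per gene, with genes near the centromeres in orange and dotted lines between 2 and 3 and between 9 and 10 peaks. Up to about the span of heph, genes of the same length differ widely in their count, while kirre is the only gene over 300 kb with more than 11.

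Span alone did not order the genes. Of the 12 longest, 7 lay in stretches next to the centromeres, and the longest of all, the unconventional myosin gene Myo81F, held 1 interior peak on 1966 kb (3R:567076–2532932). Pzl held 6 on 709 kb, lovit 5 on 434 kb, CG17684 11 on 396 kb and DIP-lambda 2 on 379 kb. Snap25, which encodes a SNARE protein of membrane fusion, held 3 on 225 kb, and l(3)80Fg held 1 on 216 kb. These 7 are on 2R, 3L or 3R. The other 5 of the 12 were kirre, Ten-a with 27 on 292 kb, the RNA-binding protein genes bru3 with 9 on 281 kb and Rbp6 with 18 on 179 kb, and pum.

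The centromere-side stretches were set as the run of 200 kb windows from that end of an arm with under 20 summits each. They measured 5.4 Mb on 2R, 5.09 Mb on 3L, 4.0 Mb on 3R, 0.313 Mb on 2L and 0.338 Mb on X. Since summit counts set their borders, the low counts within them are a description. They held 22 long genes with a median of 2 interior peaks, against 18 for the other 285. Of the 22 genes 12 held 2 or fewer, 9 held 3 to 9, and 1 (CG17684) held 11. How much of this sequence short reads can be placed on was not measured. Of the 55 genes with few peaks, 43 lay outside the stretches as set here. They include CG40006, near the inner end of 2L, where the stretch so set measures only 0.313 Mb. Nearness to the centromere by another measure was not tested.

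Outside these stretches interior density was highest in genes of 10 to 50 kb. Interior summits numbered 3.00 per 10 kb in genes of 10 to 20 kb, 2.93 in those of 20 to 50 kb, 2.70 in those of 50 to 100 kb and 2.30 in those over 100 kb. Genes up to 10 kb, with little interior left beyond 500 bp of an end, stood at 1.94. Among the long genes outside these stretches, the median density per gene was 2.47 at 50 to 60 kb, 2.91 up to 80 kb, 3.14 up to 120 kb and 2.23 up to 200 kb. It was 1.01 in the 3 genes over 200 kb, which are kirre, Ten-a and bru3. With the centromere-side genes included, interior summits per 10 kb numbered 2.96 in genes of 10 to 20 kb. They numbered 2.87 in those of 20 to 50 kb, 2.61 in those of 50 to 100 kb and 1.45 in those over 100 kb. On either side of the 50 kb limit, Sytbeta (50283 bp) held 2 interior peaks and ab (50403 bp) 19, while Octalpha2R (49945 bp) held 6 and NetA (49917 bp) 9. Around the 500 bp limit, 30 summits within long genes lay 451 to 500 bp from a gene end, with a median fold enrichment of 1.92, and 36 lay 501 to 550 bp away, with 1.91.

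By arm, the pooled density over all long genes was 2.69 per 10 kb on 2L, 2.07 on 3L, 1.97 on 2R, 1.96 on 4, where bt is the 1 long gene, 1.87 on X and 1.80 on 3R. The order turned over without the centromere-side genes, among them Myo81F and Pzl on 3R. The density was then 2.88 on both 2R and 3R, 2.71 on 3L and 2.69 on 2L, with 4 and X as before and X lowest. The median density per gene over all long genes was also highest on 3R, at 2.91, and lowest on X, at 1.92. Of the 69 long genes on X 41 had many interior peaks and 17 had few, and of the 53 on 2L these numbers were 36 and 5.

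Spans of the genes with 2 or fewer interior peaks ran from 50.3 kb to 1966 kb. The longest with none was CG40006, at 134 kb near the inner end of 2L (2L:22622417–22756349). It was followed by Parp1, which encodes poly(ADP-ribose) polymerase, at 126 kb (3R:3461351–3587054), and the allatostatin A receptor gene AstA-R1 at 92.2 kb (X:3574536–3666724). The memory gene rsh spans 90.5 kb and nvd, an enzyme gene of ecdysone synthesis, 76.8 kb. Then came stol, which encodes a calcium channel subunit, at 74.1 kb, Nipped-A, a component gene of histone acetyltransferase complexes, at 73.1 kb, and vex at 72.2 kb. Of these 8, Parp1, nvd and Nipped-A lie in the stretches next to the centromeres. A gene with no interior peak in the list could still have a peak at an end. Of the 16 genes with none, 10 had a summit within 500 bp of one of their own ends. So had 73.6% of all long genes and 65.6% of all protein-coding genes. Among the 10, the highest was at vex, with a fold enrichment of 3.45, and Parp1 reached 3.13.

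The 3 groups by count were compared on measures that the count does not use. Their spans were alike, with medians of 74.2 kb for many, 79.1 kb for 3 to 9 and 72.6 kb for few. A summit at one of the gene's own ends was present in 165 of 191 genes with many interior peaks, or 86.4% (95% Clopper-Pearson interval 80.7% to 90.9%). It was present in 34 of 61 genes with 3 to 9 (55.7%) and in 27 of 55 with few (49.1%, interval 35.4% to 62.9%). The intervals cover counting over genes, which are not replicates. Both ends carried a summit in 26.2% of the genes with many and 3.64% of those with few. Outside the centromere-side stretches the shares with any end summit were 86.8% and 48.8%.

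Where a gene had end summits, the median height of its highest one was lowest in genes with few interior peaks. Both ends carried a summit in 50 of these 165 genes with many and in 2 of these 27 with few. The maximum is thus drawn from more end summits in genes with many, and a higher value is easier to reach there. The highest fold enrichment at a gene's own ends had a median of 2.74 in genes with many interior peaks, 2.69 in the middle group and 2.54 in genes with few. Outside the centromere-side stretches the medians were 2.74 for many (interquartile range 2.34 to 3.02) and 2.30 for few (1.99 to 2.83). Fold enrichment is the ratio of overlapping reads at the summit to the local background, as the authors' peak caller gave it. Across the 226 long genes with an end summit, its height and the interior count had a Spearman rho of 0.0544, given as a description.

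Genes with many interior peaks also had more annotated transcripts. The RefSeq table listed a median of 6 transcripts for them, against 3 in both other groups. Without the centromere-side genes these medians were 6 for many and 4 for few. Of 23 genes with 1 transcript 6 had many interior peaks (26.1%), of 131 with 2 to 4 transcripts 70 (53.4%), of 95 with 5 to 9 transcripts 70 (73.7%), and of 58 with 10 or more 45 (77.6%). Outside the centromere-side stretches the first of these was 6 of 14 (42.9%). Median density did not follow in step, at 0.354, 1.88, 3.44 and 2.77 per 10 kb, the first of these being 0.785 outside the stretches. Across the 307 genes the Spearman rho of transcripts with the count was 0.297, and with density 0.221. Across the 285 genes outside the stretches these were 0.236 and 0.131. Single genes departed from this: para, a sodium channel gene with 60 listed transcripts, held 3 interior peaks, and Dscam1, an axon guidance receptor gene with 75, held 15. How fully each gene's transcripts were annotated was not examined here.

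Other genes lie inside many long genes. The median long gene contained 1 nested protein-coding gene, and kirre contained 21. SLO2, which encodes a potassium channel, contained 17 and held 1 interior peak. Of the 5633 peaks 223 also lay inside a shorter coding gene and 226 inside a non-coding gene. For 61.1% of them the nearest gene end belonged to a gene other than the host, and the median distance to the nearest end of any gene was 9.42 kb. Members over 10 kb from every gene end numbered 2710, or 48.1%.

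**Figure D2:**
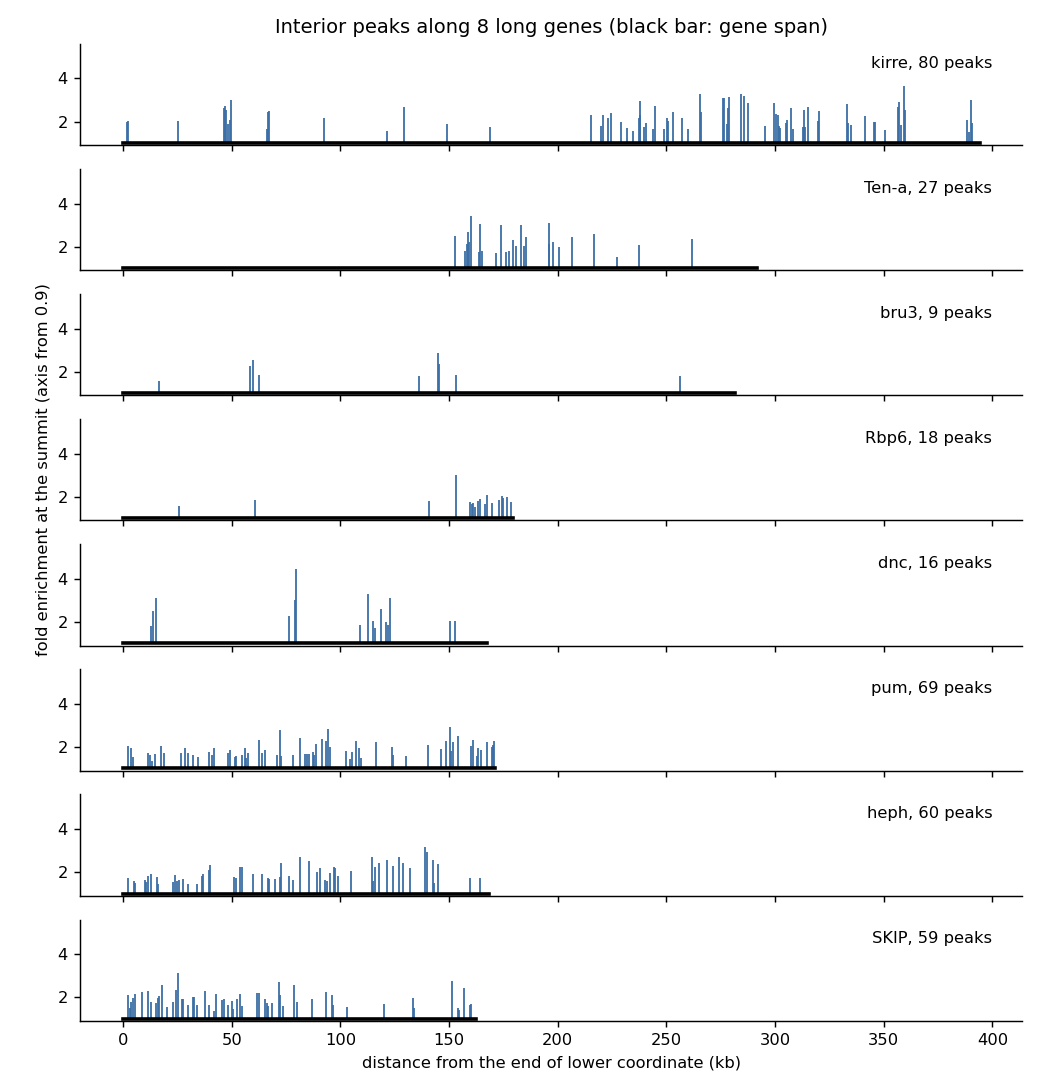
Interior peaks of 8 long genes, each drawn as a line whose height is its fold enrichment (axis from 0.9), against the distance from the gene's end of lower coordinate in kb. In Ten-a all 27 peaks lie on the side of the midpoint with higher coordinate, while the 69 peaks of pum divide as 35 and 34.

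In some genes most of the interior peaks lay on one side of the gene's midpoint. Over 80% did so in 16 of the 191 genes with many. Ten-a, a teneurin gene for synaptic matching, had all 27 on the side of higher coordinate, after a stretch of 152 kb with none. All 12 of Sdc, a heparan sulfate proteoglycan gene, and all 13 of RYa-R, a neuropeptide receptor gene with 9 nested protein-coding genes, also lay on 1 side. In kirre the sides held 17 and 63, and in Rbp6 they held 2 and 16. The related gene Ten-m showed no such stretch: it held 41 on 115 kb, with 9.82 kb as the longest stretch between interior peaks or to an end.

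Neighbouring interior peaks of the same gene lay a median of 1592 bp apart (interquartile range 811 to 3375 bp, 5514 distances). Of these distances 32.5% were under 1 kb and 5.50% over 10 kb. In genes with many interior peaks the longest stretch without one had a median of 11.8 kb, or 16.3% of the span. It exceeded 20 kb in 45 of the 191 genes. The most in any 10 kb was 12, in the overlapping genes CG3777 and CG32816.

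**Figure D3:**
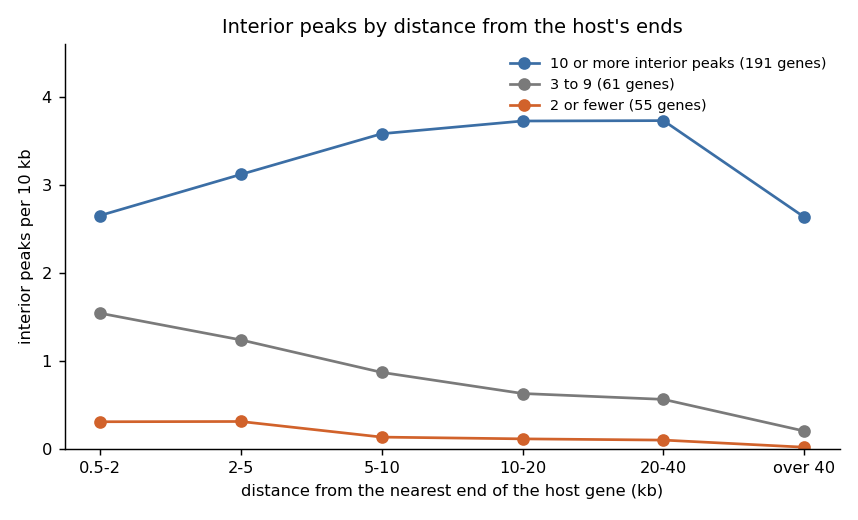
Interior peaks per 10 kb of interior sequence against distance from the nearest end of the host gene (kb, in 6 classes), with 1 line for each group of genes by count. The genes with 10 or more run from 2.65 through 3.73 at 20 to 40 kb to 2.63, those with 3 to 9 from 1.54 to 0.202, and those with 2 or fewer from 0.307 to 0.0179.

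Density by distance from the gene's ends is given as a description of each group, since the groups were cut by count and a low count in a very long gene fixes a low density far from its ends. In genes with many interior peaks the density was 2.65 per 10 kb at 0.5 to 2 kb from the nearest end of the host, 3.12 at 2 to 5 kb, 3.58 at 5 to 10 kb, 3.72 at 10 to 20 kb and 3.73 at 20 to 40 kb. It was 2.63 beyond 40 kb, a distance that only genes over 80 kb reach. In genes with 3 to 9 it was 1.54 in the first class and 0.202 in the last. In genes with few it was 0.307 next to the ends, on 5 summits, 0.310 at 2 to 5 kb, on 10, and 0.0179 beyond 40 kb, also on 5. Myo81F alone holds 1.88 of the 2.79 Mb behind that last value. Outside the centromere-side stretches the first and last values were 2.67 and 2.89 for many, 1.35 and 0.260 for 3 to 9, and 0.237 and 0.0415 for few, the last on 1 summit. The median fold enrichment over all long genes stayed between 1.87 and 1.94 in all 6 classes.

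Single peaks inside long genes were of the same height as those inside shorter genes. Fold enrichment had a median of 1.91 and an interquartile range of 1.68 to 2.24 for the 5633 peaks, and a median of 1.91 for 11907 summits inside shorter protein-coding genes. It was 1.98 for 5882 intergenic summits and 2.24 for 10855 gene-end summits. A fold enrichment over 3 was reached by 221 of the members (3.92%), by 3.59% of interior summits of shorter genes and by 11.2% of gene-end summits. Median widths were 352, 347 and 384 bp in the same order.

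The number of overlapping reads at a summit, and the local background, were worked out from the deposited values. Interior peaks of long genes had a median of 144 overlapping reads over a median background of 70.8. A single peak of 144 reads has a 95% Poisson interval of 121 to 170, which covers its counting error only and is not an interval of the median. In genes with many interior peaks the medians of reads and background were 147 and 72.5, in the middle group 114 and 57.2, and in genes with few 112 and 57.2. The value of 57.2 is the floor of the background in the list. The median fold enrichments were 1.91, 1.92 and 1.94, so the called peaks differed in reads and in background together while the ratio was nearly the same. Every group holds only peaks that passed the caller's limit, so sites of lower ratio do not enter these medians. The caller's background is local and takes in neighbouring reads, so it is not independent of how crowded a gene is with peaks. Their respective parts were not tested.

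The highest interior peak of any long gene was also the highest of the whole list. It lay 79.6 kb from the nearest end of dnc, the cAMP phosphodiesterase gene (X:3255844–3256289, fold enrichment 4.45, 258 reads at the summit), and 5032 bp from the nearest end of any gene. The gene has no summit at either of its own ends and 16 interior peaks on 167 kb. Next came a peak in mamo at 4.06 (X:13988643–13989341), 1649 bp from its end, and one in EcR, the ecdysone receptor gene, at 3.97 (2R:6095673–6096720), 8.30 kb inside. MSAmiP followed at 3.92 and chinmo, a BTB zinc-finger gene of developmental timing, at 3.90. The FGF ligand gene ths had one at 3.88, the diacylglycerol kinase gene rdgA at 3.85 and the leucine-rich repeat gene kek5 at 3.83, the last 621 bp from the gene's end. Cph had one at 3.83 and the cell polarity gene scrib at 3.81, 37.2 and 30.7 kb from the nearest end of their genes.

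Of these 10 hosts dnc, MSAmiP, kek5 and Cph had no summit at either of their own ends. The peak in kek5 (X:19353010–19354396) nevertheless covers the gene's end at 19353181, and only its summit lies beyond the 500 bp limit. Over all long genes, 75 with interior peaks had none at an end, and among the 191 with many there were 26, led by hth with 50 interior peaks, kek5 with 47 and luna with 43. In 139 of the 216 genes with both kinds (64.4%), the highest interior peak was above the highest end peak. In the genes with many this was 122 of 165. An interior maximum is drawn from more peaks than an end maximum, so a higher value is easier to reach there.

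**Figure D4:**
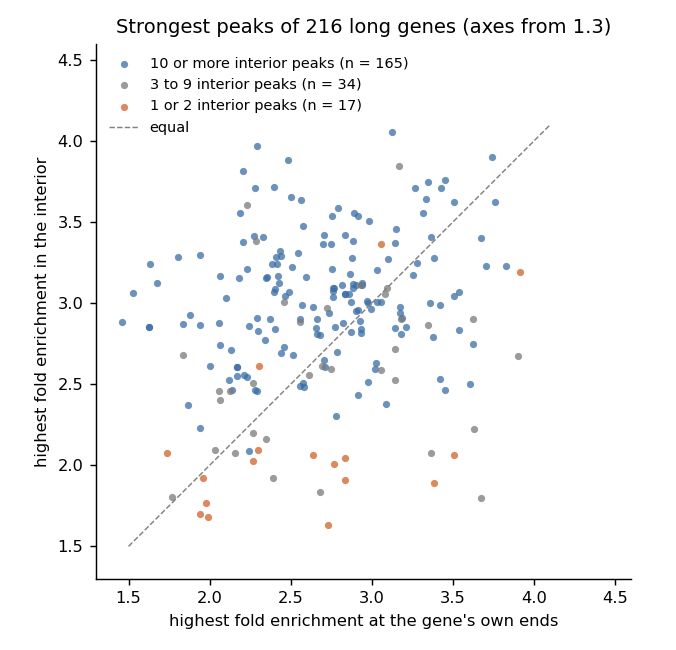
Highest fold enrichment in the interior against the highest at the gene's own ends (both axes from 1.3) for 216 long genes with both, 1 point per gene, coloured by interior count. Points above the dashed line of equality number 139, and 122 of them are genes with 10 or more interior peaks.

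Counts differed widely between genes of different roles. In all, 142 of the 307 genes fell into at least 1 of 8 lists by role, 4 of them into more than 1. Against the shares of 62.2% with many and 17.9% with few over all long genes, counts are given for each list below, as a description with no test. The lists were made by hand and are partial: the nuclear receptor gene ftz-f1 (12 interior peaks) and the channel genes SLO2 (1) and stol (0) are on none of them. By share of genes with many, transcription factors came first and ion channels, transporters and receptors last.

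Of the 29 genes over 50 kb on the transcription factor and nuclear receptor list, 28 had many interior peaks (96.6%) and 0 had few. Their median was 28 interior peaks and 4.09 per 10 kb, and 25 of the 29 had an end summit. Eip75B and jing led with 53 each. The fewest were in pros, a homeodomain gene of neural daughter cells, with 6, and chinmo with 11. The Hox gene Antp had 51 and Ubx 37, fru had 51 and hth, which encodes a Hox cofactor, had 50. Genes of the ecdysone cascade and of stage timing, grouped after their values were seen, all had many: Eip75B, Eip74EF, EcR, Hr4, br, Eip93F, ftz-f1 and chinmo, 8 of 8 with 11 to 53. The 17 interior peaks of br all lie in the overlapping gene Mur2B too.

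Of the 10 genes on the ligand and morphogen receptor list 9 had many interior peaks (90.0%), with the highest median density of the lists, 4.57 per 10 kb. The list also takes in heparan sulfate genes, namely dally with 28, Hs6st with 15 and sfl. The Wnt receptor genes fz and fz2 led with 47 and 43, at spans of 94.3 and 94.4 kb. The FGF ligand gene ths had 17. At the low end were sfl, an enzyme gene of heparan sulfate synthesis, with 13 and Gfrl, which encodes a GDNF receptor-like protein, with 2 on 106 kb.

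Of the 14 listed RNA-binding protein genes 13 had many (92.9%), but at a median span of 118 kb and a median density of 2.75. After pum and heph, the lowest were bru3 with 9 and its relative bru1 with 11 on 138 kb (0.821 per 10 kb), of which 102 kb in a row held none. Of 7 matrix and cuticle genes 6 had many and 0 had few, and all 7 had an end summit. Among the 6, Mur2B held 24, of which 17 are shared with the overlapping br of the transcription factor list. The giant matrix protein gene dpy had 35 and the laminin gene wb 31, against 15 for trol, which encodes perlecan, and 7 for the collagen gene Mp.

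Of 16 intracellular signalling genes 11 had many (68.8%), near the share of all long genes. CG43658 led with 51, and mbl, a splicing regulator gene also on the RNA-binding list, had 41. Also on another list were pnt with 28 (transcription factors) and cpo with 26 (RNA-binding). At the low end were rl, the ERK kinase gene in a centromere-side stretch, with 2 and the diacylglycerol kinase gene Dgk with 1. Of 8 cytoskeleton and muscle genes 7 had many, led by shot, a linker of actin and microtubules, with 30 and Msp300, a nesprin gene, with 22. Another of the 7 was Rbp6 with 18, which is also on the RNA-binding list. The lowest were the giant muscle protein gene bt on chromosome 4 with 10 and Myo81F with 1. Per length the 8 genes were below all long genes, with a median density of 2.09 per 10 kb against 2.50.

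Adhesion and axon guidance genes were divided. Of the 43 on the list 24 had many interior peaks (55.8%) and 7 had few (16.3%), close to all long genes, at a median density of 1.40. At the top were kirre with 80 and kek5 with 47, and ed and Fas3, adhesion genes of epithelia, had 41 and 40. At the bottom, dpr11 and side-VIII had 0. Within this field the dpr, DIP, beat and side families, paired surface proteins of neurons and muscles, were grouped after their values were seen. Of 17 such genes over 50 kb, 1 (beat-IIIc with 20) had many and 6 had few, with a median of 4 interior peaks and 0.559 per 10 kb. An end summit was present in 6 of the 17, and 2 lay in centromere-side stretches.

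The listed ion channel, transporter and neurotransmitter receptor genes had the fewest. Of the 19 over 50 kb 1 had many (5.26%) and 9 had few (47.4%), with a median of 3 interior peaks and 0.336 per 10 kb. The 1 with many was RYa-R with 13. The gap junction gene shakB came next, with 8 on 166 kb. AstA-R1, the dopamine receptor gene Dop2R, the serotonin receptor gene 5-HT1A and the potassium channel gene eag had 0. The calcium channel gene cac had 1, and the potassium channel gene Sh had 3 on 139 kb. Yet 12 of the 19 had an end summit (63.2%, against 73.6% of all long genes). The 61 interior peaks they did have had a median fold enrichment of 1.97, against 1.90 for 927 peaks in the transcription factor list. Median reads were 117 and 155, over median backgrounds of 57.2 and 76.6. Only called peaks enter these medians, so they do not describe sites below the caller's limit. Beside these counts, 3 of the 4 neuronal markers named above had an end summit and nSyb had none, and the part of neurons in them was not tested.

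**Figure D5:**
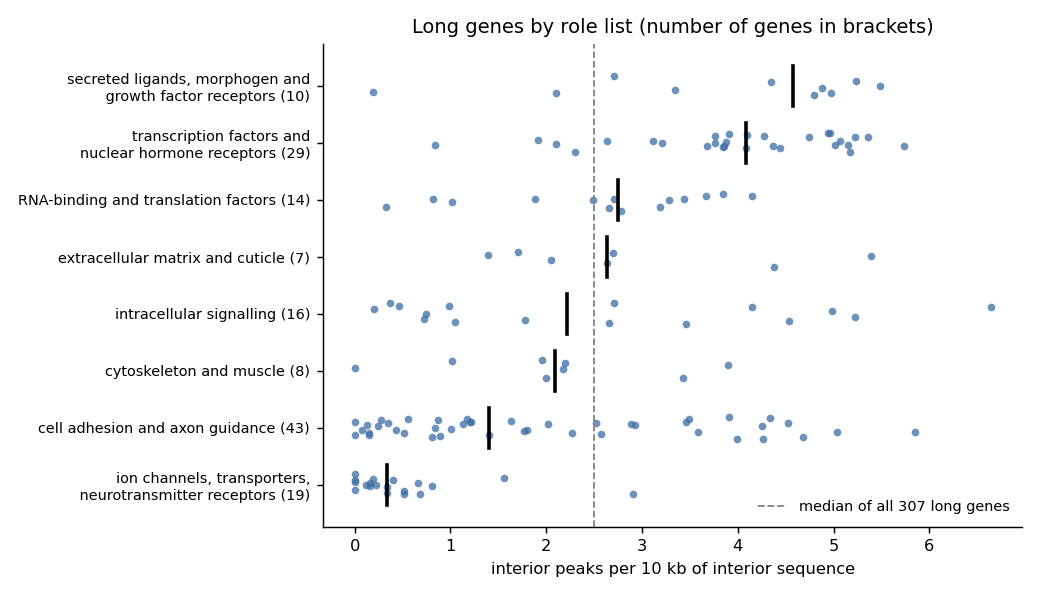
Interior peaks per 10 kb of interior sequence for the long genes of 8 role lists, 1 point per gene, with the median of each list as a black bar and that of all 307 genes dashed. The median bars run from 0.336 for ion channels, transporters and receptors to 4.57 for ligands and morphogen receptors, and genes of adhesion span nearly the whole axis.

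Of the 165 long genes on no list 58.2% had many interior peaks and 21.2% had few. Genes known only by a CG number made up 53 of the 307. Of these 26 had many and 11 had few, with a median of 9 interior peaks and a highest count of 56 in CG46467, all of which it shares with Glut4EF.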

How the data were processed

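Per the submitters' processing notes, the authors used BWA, SAMtools, Picard and MACS2 with the dm6 build. Versions, settings and read depth, and the way of merging 3 replicates, were not given in the sources used here. The fold enrichment deposited for a peak is a linear ratio of summit pileup to local background. Deposited beside it were a −log10 p and a −log10 q value. The deposited score, a display value, was not used.

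Summits were placed on RefSeq gene spans of the same Release 6 assembly, in 1-based coordinates. Interior density is members per 10 kb of gene span over 500 bp from every gene end. A member in 2 hosts was counted once in totals and in each host. Pileup was the whole number at which fold enrichment, as (pileup + 1) / (background + 1), and the Poisson tail met the deposited −log10 p within 0.002, which was so for all 34718 peaks. Many means 10 or more interior peaks and few 2 or fewer.

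The 6 genes over 50 kb on Y are not analysed here. Planned comparisons by strand, promoter motif and sequence were not run, since only gene spans were used. Named genes are the 12 with the most interior peaks, the 8 densest, the 8 longest with none, the 12 longest, hosts of the 10 highest peaks and 2 at each end of every role list. Others were named after their values were seen. The members, lists and comparisons were chosen with earlier results of these data known. Counting and recovery were tested on simulated data. Python 3.11.15, numpy 2.4.6, pandas 2.3.3 and scipy 1.17.1 were used.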

Additional observations from a re-analysis of the deposited data

How the results depend on the processing

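Of 71 values recomputed under alternatives, 53 stayed within the limits set and 18 moved beyond them. The limits were 1.5 times, or the 95% Clopper-Pearson interval of a share. A change of direction was scored for the ratio of interior densities alone, and was found in 0 of its alternatives. With a span minimum of 30 kb in place of 50 kb there were 8990 members, 365 genes with 10 or more, 139 with 2 or fewer and 47 with none. With 100 kb these were 1995, 53, 12 and 2. Fewer or more genes enter by construction. When the list was cut to the 17359 peaks of lowest q-value, 2327 members were left, with a median of 6 per gene. There 115 genes had 10 or more, 104 had 2 or fewer and 55 had none. The share of genes with many interior peaks that had an end summit was 71.7% over 100 kb, 74.6% with ends of 250 bp, 93.6% with 1000 bp, 80% among the 17359 peaks and 93.5% in the 77 densest genes. In genes with few it ranged from 41.5% to 54.4% over the same alternatives, below the share in genes with many in each. Without the genes near the centromeres the interior density of long genes was 0.867 of that in genes of 20 to 50 kb, against 0.706 with them. That alternative for density (also by arm and by distance) and for counts per gene, and taking overlapping long genes as 1 locus (184 with many, 55 with few), were chosen after seeing the data. No paired analysis was possible because the 3 replicates form 1 group in 1 merged list, and for the same reason no replicate could be left out. Depth per replicate is unknown.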
